A study of Mus musculus with 20 samples.

Results

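The enhancers described here are those whose transcription in mouse bone marrow-derived macrophages depended on interferon gamma (IFN-γ) and not to the same degree on CpG DNA. An enhancer was a member when it had 30 or more CAGE tags over the 20 libraries and when its mean level in the 12 libraries with IFN-γ was at least 2.5 times its mean level in the 8 libraries without it. Enhancers whose mean level with CpG was also at least 2.5 times that without CpG were left out. The rule took 724 of the 11222 enhancers in the deposited tables, which is 18.2% of the 3969 enhancers with 30 or more tags. It left out 57 enhancers that met both ratios. The mirror rule for CpG held for 601 enhancers.

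Macrophages of C57BL/6 mice were grown from marrow and stimulated with IFN-γ and CpG together for 3, 9 or 15 h, with IFN-γ alone for 3, 9 or 15 h, with CpG alone for 3, 9 or 15 h, or left unstimulated (0 h). Each of the 10 groups had 2 libraries, stated to be biological replicates. The labels do not say whether the cells came from separate animals, and the p-values measure only the spread between these libraries. There were no unstimulated cells at 3, 9 or 15 h, so time in culture and time under a stimulus cannot be told apart. Doses are not assigned to these libraries in the labels, and the cell type could not be checked against marker genes, since the tables hold only enhancers.

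IFN-γ is a cytokine of T cells and natural killer cells. It signals through a receptor on the cell surface and changes which genes and enhancers the macrophage uses. CpG DNA mimics microbial DNA and acts through the endosomal receptor TLR9 and the adaptor MyD88 to activate NF-κB and other factors. Active enhancers are transcribed in both directions into short unstable RNAs. CAGE, the sequencing of capped RNA 5′ ends, counts the starts of these RNAs, and a pair of divergent starts marks an enhancer.

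The libraries held 12776280 to 13855472 tags each, and enhancers took 0.0991% to 0.220% of them. Counts per enhancer were therefore small. The 724 enhancers had 30 to 501 tags each over all 20 libraries, with a median of 47, and the median count of an enhancer in a single library was 3 with IFN-γ and 0 without it. Levels are given as RPM, tags scaled to a library of 1000000 tags. In bulk RNA, fewer cells that use an enhancer and less enhancer RNA per cell cannot be told apart.

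The IFN-γ and CpG ratios chose these enhancers and are therefore described and not tested. The mean level of an enhancer had a median of 0.267 RPM with IFN-γ and of 0.0472 RPM without it. The ratio of these means had a median of 5.46, and 233 enhancers had a ratio of 10 or more. In 69 enhancers no tag was seen in any of the 8 libraries without IFN-γ. In the unstimulated libraries 278 of the 724 enhancers had no tag, as did 183 of the 3245 other enhancers with 30 or more tags. The ratio of the mean with CpG to the mean without had a median of 0.806, and it was under 1 in 474 enhancers. The cut fell within a continuous range. The enhancers nearest to it inside were chr3:137575182-137575625 at 2.503, chr19:43511908-43512245 at 2.505 and chrX:166111382-166111938 at 2.512. Just outside lay chr1:131631152-131631612 at 2.498, chr17:29600428-29600972 at 2.48 and an enhancer on chromosome 18 at 2.479. Among those left out for their CpG ratio, chr7:87919781-87920003 was nearest to the cut with a CpG ratio of 2.519.

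The enhancers were of ordinary width, with a median of 342.5 bases against 364 bases in the other enhancers with 30 or more tags. Activity was spread widely. The 10 strongest held 7.77% of the mean level with IFN-γ summed over all 724. A mean of 1 RPM with IFN-γ was reached by 28 enhancers, and 600 stayed under 0.5 RPM. Coordinates are those of the deposited tables on mouse build mm39. A gene annotation of this build was not used here, so the enhancers are called by their position.

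Summed over the 724 enhancers, the group mean was highest at a different time with CpG added than with IFN-γ alone. With both stimuli, the sum was 303.9 and 416.4 RPM at 3 h, 206.3 and 199.7 RPM at 9 h, and 224.4 and 272.3 RPM at 15 h. With IFN-γ alone it was 237.2 and 192.5 RPM at 3 h, 255.0 and 363.5 RPM at 9 h, and 244.9 and 252.8 RPM at 15 h. The highest group mean was thus at 3 h with both stimuli and at 9 h with IFN-γ alone. The latter leaned on 1 library, at 363.5 RPM, which also had more enhancer tags than its replicate, 24689 against 17731. That replicate, at 255.0 RPM, lay near the 15 h libraries. At 15 h the group means were 248.3 ± 33.8 RPM with both stimuli and 248.8 ± 5.57 RPM with IFN-γ alone (SD, n = 2 each). With CpG alone the sum lay between 37.87 and 57.33 RPM at all times, and in unstimulated cells it was 45.13 and 46.96 RPM. A permutation test of 2 libraries against 2 cannot go below p = 0.333, so these sums were not tested.

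The total output of enhancers also differed between libraries, and it moved the sums. As a share of all enhancer tags, the 724 enhancers made up 18.9 ± 0.0155% at 3 h, 14.9 ± 0.179% at 9 h and 13.4 ± 0.466% at 15 h with both stimuli. With IFN-γ alone the shares were 18.7 ± 0.981% at 3 h, 20.1 ± 0.242% at 9 h and 19.3 ± 0.491% at 15 h. Shares were lower at each later time with both stimuli, and with IFN-γ alone they showed no such order. Part of a share is what other enhancers do. The 601 CpG-dependent enhancers summed to 186.6, 173.6 and 258.9 RPM at 3, 9 and 15 h with both stimuli and to 45.7, 46.6 and 37.6 RPM with IFN-γ alone. With those 601 and the 57 that met both ratios taken out of the total, the shares with both stimuli were 21.3 ± 0.046% at 3 h, 17.5 ± 0.207% at 9 h and 15.9 ± 0.655% at 15 h. The same shares with IFN-γ alone were 19.6 ± 0.987% at 3 h, 20.8 ± 0.266% at 9 h and 19.96% on average at 15 h. The order over time was the same in both ways of counting.

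**Figure D1:**
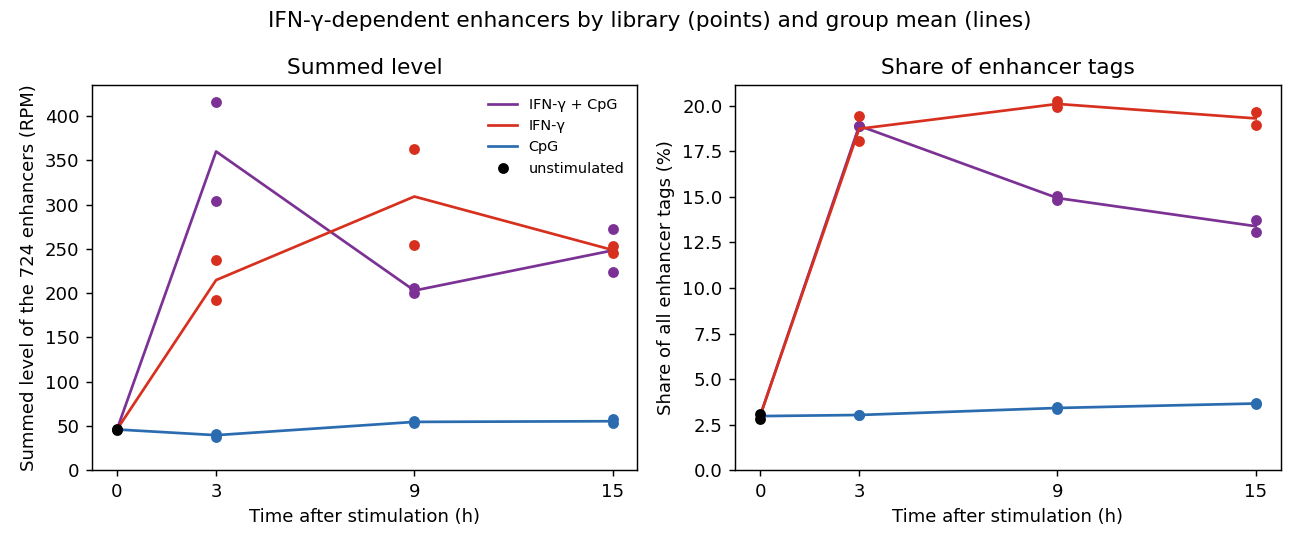
Summed level of the 724 IFN-γ-dependent enhancers in RPM (left) and their share of all enhancer tags in percent (right) against time in hours. Points are the 20 libraries, lines join the means of 2 libraries, and the 0 h point is the unstimulated group. With both stimuli the sum was highest at 3 h and the share was lowest at 15 h, 13.4%, while with IFN-γ alone the sum was highest at 9 h and the share stayed between 18.7% and 20.1%.

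Single enhancers followed the same split. With both stimuli, 424 of the 724 enhancers (58.6%) had their highest group mean at 3 h, 117 (16.2%) at 9 h and 183 (25.3%) at 15 h. Among the 3245 other enhancers with 30 or more tags these shares were 37.7%, 16.7% and 45.6%. With IFN-γ alone, 185 of the 724 (25.6%) were highest at 3 h, 359 (49.6%) at 9 h and 180 (24.9%) at 15 h, against 34.8%, 36.8% and 28.4% of the other enhancers. After scaling by TMM, which sets the bulk of enhancers equal between libraries, the shares of the 724 were 56.1%, 25.3% and 18.7% with both stimuli and 30.5%, 40.1% and 29.4% with IFN-γ alone. A highest mean out of 3 is drawn from few tags and carries no test.

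**Figure D2:**
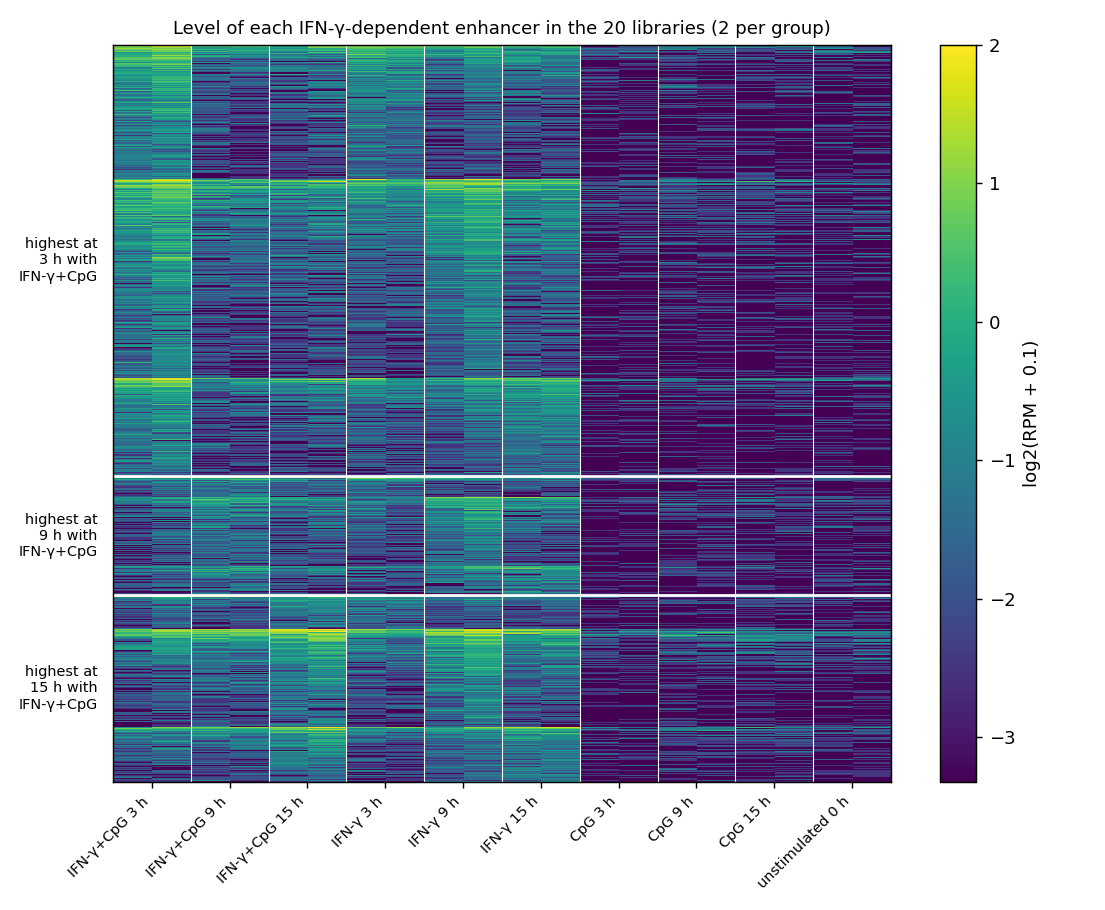
Level of each of the 724 enhancers (rows) in the 20 libraries (columns, 2 per group), as log2(RPM + 0.1), capped at 2. Rows are grouped by the time of their highest mean with both stimuli, then by that with IFN-γ alone; the block highest at 3 h holds 424 enhancers, and the libraries without IFN-γ at the right are dark by the choice of enhancers.

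The 10 strongest enhancers showed several courses. The highest of all, chr5:121537641-121537963, had 50 and 53 tags at 3 h, 57 and 47 at 9 h, and 62 and 47 at 15 h with both stimuli. With IFN-γ alone it had 49 and 23 tags at 3 h, 25 and 22 at 9 h, and 15 and 10 at 15 h. With CpG added the tags showed no order over time, without it there were fewer at later times, and from 9 h on the groups did not overlap. With CpG alone it had 5 to 7 tags in each library, and unstimulated cells had 1 and 3. The next, chr1:176651455-176651913, had 83 and 111 tags at 3 h, 15 and 10 at 9 h, and 17 and 16 at 15 h with both stimuli, and 50 and 37, 19 and 22, and 17 and 13 tags at the same times with IFN-γ alone. Its highest level was at 3 h under both conditions, and at that time the conditions did not differ past the threshold (log2 difference 0.62 ± 0.27, adjusted p = 0.234).

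Others of the 10 had other courses. chr10:7710717-7711320 had 24 and 23 tags at 3 h, 30 and 28 at 9 h, and 46 and 70 at 15 h with both stimuli, and between 25 and 35 tags in every library with IFN-γ alone. chr3:121164067-121164375 had 17 and 34, 20 and 24, and 41 and 30 tags at 3, 9 and 15 h with both stimuli, and 20 and 10, 33 and 48, and 35 and 30 with IFN-γ alone. It had no tag in unstimulated cells and at most 2 in a library with CpG alone. chr12:69410829-69411146 had 15 and 31 tags at 3 h, 6 and 18 at 9 h, and 3 and 6 at 15 h with both stimuli, against 42 and 13, 34 and 46, and 22 and 25 with IFN-γ alone. At 9 and 15 h its libraries with CpG all lay below those with IFN-γ alone. The enhancer on chromosome Y, chrY:90850402-90850945, had 23 to 32 tags in the libraries with both stimuli and 10 to 27 in those with IFN-γ alone.

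Among enhancers with no tag in the 8 libraries without IFN-γ, the 5 with the most tags also differed in course. chr4:116512915-116513101 had 5 to 11 tags in each library with both stimuli and 3 to 8 with IFN-γ alone, with no order over time. chr17:27246309-27246809 had 2 to 9 tags with both stimuli and 3 to 9 with IFN-γ alone, and chr19:11471944-11472230 had 3 to 13 and 2 to 9. The remaining pair had few tags at 9 and 15 h when CpG was present. chr5:34920286-34920501 had 12 and 11 tags at 3 h, 0 and 1 at 9 h, and 0 and 2 at 15 h with both stimuli, against 5 to 11 tags in every library with IFN-γ alone. chr11:95308167-95308420 had 2 and 9, 1 and 2, and 1 and 1 tags with both stimuli and 10 and 6, 5 and 11, and 10 and 18 with IFN-γ alone.

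**Figure D3:**
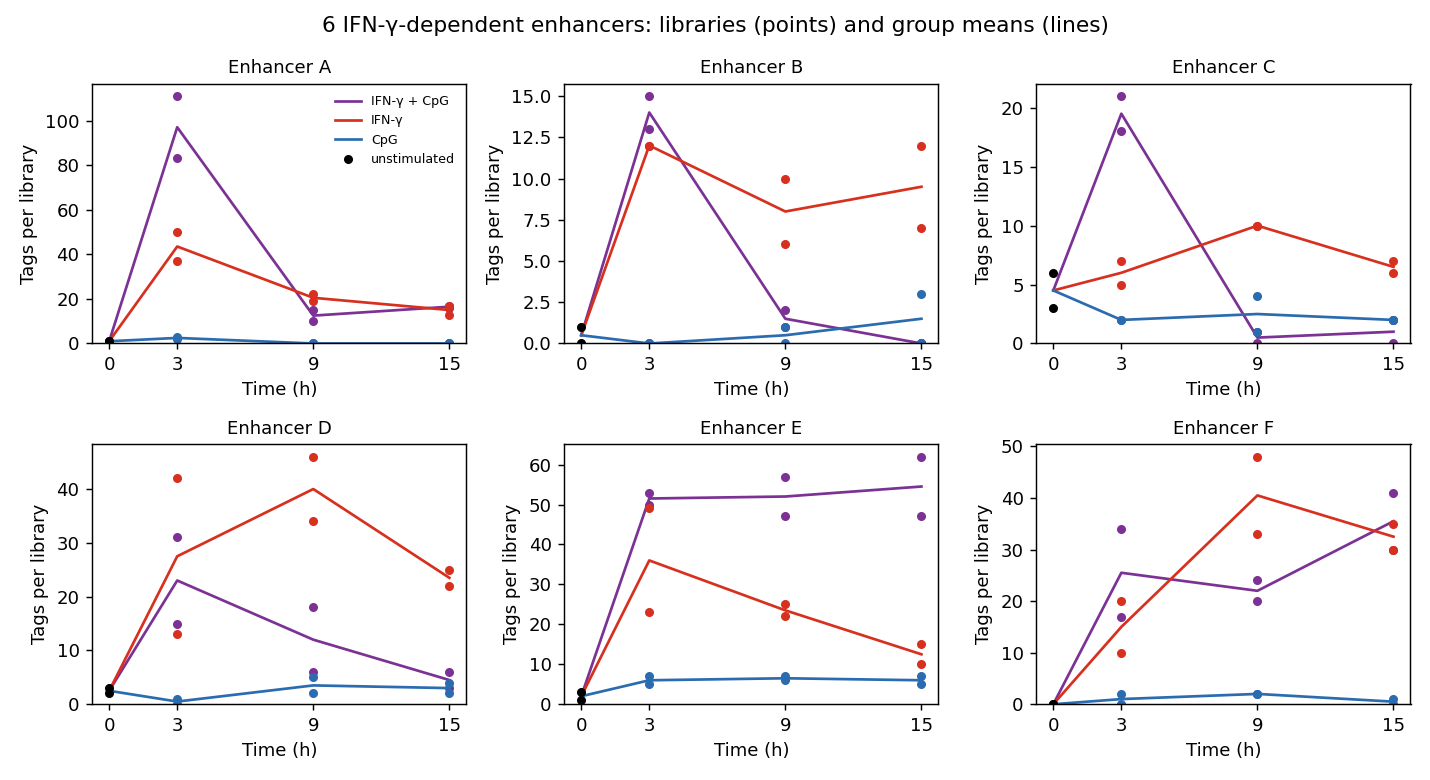
Tags per library against time in hours for 6 enhancers: A chr1:176651455-176651913, B chr11:58870081-58870635, C chr2:48584475-48584861, D chr12:69410829-69411146, E chr5:121537641-121537963 and F chr3:121164067-121164375. Points are libraries and lines join means of 2. A to C lost most of their tags after 3 h with both stimuli, at 9 and 15 h D had fewer tags when CpG was added, E had more, and F was called in none of the comparisons tested.

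Changes over time within 1 stimulus did not enter the rule and were tested with edgeR's quasi-likelihood test across 2792 enhancers, with Benjamini-Hochberg adjustment and a threshold of 0.05. Of the 724 enhancers, 535 passed the filter on low counts and 189 did not. An enhancer that passed through 1 high group is more likely to differ, so the counts below describe the 535 and not all 724. Each comparison is given with its background, the share of all 2792 that was called.

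With IFN-γ alone, few enhancers changed between 3 h and later times. At 9 h against 3 h, 3 of the 535 rose and 2 fell, with 0.716% called among all tested, 0.251% higher and 0.466% lower. At 15 h against 3 h, 5 rose and 2 fell, with 1.04% called among all tested, 0.394% higher and 0.645% lower. At 15 h against 9 h none was called by edgeR or DESeq2, and the background of calls was 0.0716%. An unadjusted p under 0.05 was seen in 30 of the 535 and in 179 of all 2792. The median log2 difference of the 535 at 9 h against 3 h was 0.24, against 0.00 over all tested enhancers. It was 0.56 against 0.28 when whole-library totals replaced TMM. At 15 h against 3 h the medians were 0.12 and -0.00. The balance of calls moved with the method. At 9 h, whole-library totals gave 7 higher and 0 lower, the stricter filter 10 higher and 1 lower of 152 tested, and DESeq2 0 higher and 1 lower. At 15 h these gave 2 higher and 2 lower, 6 higher and 2 lower, and 0 higher and 2 lower. With whole-library totals, 14 of all 2792 were higher and 2 lower at 9 h, and 7 higher and 9 lower at 15 h. Without any 1 of the 4 libraries no call was left at 9 h against 3 h, and at 15 h against 3 h there were 0 to 2.

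The enhancers that rose late had little signal at 3 h with IFN-γ. chr15:74792522-74792841 had 7 and 6 tags at 3 h, 25 and 31 at 9 h, and 29 and 19 at 15 h, and rose by 1.72 ± 0.47 (log2, SE) at 9 h (adjusted p = 0.0385) and by 1.73 ± 0.48 at 15 h (adjusted p = 0.0353). chr11:58850818-58851268 had 10 and 3, 32 and 23, and 22 and 21 tags, and rose at 9 h by 1.73 ± 0.48 (adjusted p = 0.0461). chr17:26656525-26656733 had 3 and 2, 9 and 17, and 23 and 16 tags, and rose at 15 h by 2.78 ± 0.64 (adjusted p = 0.00668). Their later libraries lay above those at 3 h, which the rule for named enhancers required. chr7:45708566-45708712 had 2 and 1, 12 and 17, and 14 and 13 tags, a ratio of 15 h to 3 h of 8.88 (95% counting interval 2.73 to 45.7, adjusted p = 0.0385). With no tag at 3 h, chr7:75438296-75438539 had 8 and 7 tags at 15 h and was at least 4.93-fold higher (adjusted p = 0.0353), and chr6:134097737-134098032 had 8 and 6 and was at least 4.60-fold higher (adjusted p = 0.0464). Bounds set an empty group at 3 tags over its 2 libraries, and intervals and bounds cover counting error only. Leaving out any 1 of the 4 libraries ended every one of these calls (adjusted p 0.0858 to 0.536), except that of chr17:26656525-26656733. It held without replicate 2 at 15 h (adjusted p = 0.043) and was lost without any of the other 3 libraries (up to 0.286).

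Declines with IFN-γ alone were seen in 3 enhancers. chr1:176651455-176651913 fell at 15 h by 1.67 ± 0.35 on the log2 scale (adjusted p = 0.00188) and at 9 h by 1.44 ± 0.33 (adjusted p = 0.00852). The strongest enhancer, chr5:121537641-121537963, fell at 15 h by 1.64 ± 0.37 (adjusted p = 0.00472). chr12:111153493-111153808 had 7 and 9 tags at 3 h, 0 and 1 at 9 h, and 5 and 4 at 15 h, and was 16.9-fold lower at 9 h than at 3 h (95% counting interval 2.62 to 706.6, adjusted p = 0.0452). The 15 h call of chr1:176651455-176651913 was lost without replicate 1 at 3 h or replicate 2 at 15 h (adjusted p up to 0.253). That of chr5:121537641-121537963 was lost without replicate 1 at 3 h or either replicate at 15 h (up to 0.56), and both 9 h calls were lost without any 1 of the 4 libraries (0.131 to 0.38).

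With both stimuli, declines outnumbered rises. At 15 h against 3 h, 59 of the 535 fell and 10 rose, with 9.28% called among all 2792. The background was 4.8% lower and 4.48% higher. At 9 h against 3 h, 25 fell and 4 rose, with 3.51% called among all tested and 1.76% in each direction. At 15 h against 9 h none was called by edgeR or DESeq2, and the background of calls was 0.0358%. An unadjusted p under 0.05 was seen in 46 of the 535 and in 196 of all 2792. The median log2 difference of the 535 was -0.53 at 9 h and -0.67 at 15 h, against -0.05 and -0.02 over all tested. With whole-library totals it was -0.86 and -0.60, against -0.35 and 0.04. Of the 535, 44 were then lower and 1 higher at 9 h, and 47 lower and 9 higher at 15 h. Among all 2792, 93 were lower and 20 higher at 9 h, and 92 lower and 109 higher at 15 h.

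The counts rest on few libraries and tags. At 15 h, 29 and 26 calls were left without replicate 1 or 2 at 3 h, and 28 and 14 without replicate 1 or 2 at 15 h. At 9 h, 10 and 12 were left without replicate 1 or 2 at 3 h, and 5 and 7 without replicate 1 or 2 at 9 h. DESeq2 also called 15 of the 69 enhancers called at 15 h and 4 of the 29 called at 9 h, and gave no adjusted p for 35 and 16 of them.

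The declines after 3 h differed in how many tags were left. chr1:176651455-176651913, whose tags are given above, fell by 2.56 ± 0.33 at 9 h (adjusted p = 2.93e-11) and by 2.55 ± 0.32 at 15 h (adjusted p = 6.5e-13) on the log2 scale, and these calls held without any 1 library. chr2:48584475-48584861 had 18 and 21 tags at 3 h, 1 and 0 at 9 h, and 2 and 0 at 15 h. It was 37.5-fold lower at 9 h than at 3 h (95% counting interval 6.35 to 1520, adjusted p = 7.66e-05) and 18.8-fold lower at 15 h (4.87 to 160.6, adjusted p = 1.78e-05). With IFN-γ alone it had 5 to 10 tags in every library. chr11:58870081-58870635 had 15 and 13 tags at 3 h, 1 and 2 at 9 h, and none at 15 h, and was at least 8.99-fold lower at 15 h (adjusted p = 1.61e-05). These calls at 15 h were kept without any 1 library, with adjusted p up to 0.0378, as was the 9 h call of chr2:48584475-48584861 (up to 0.045).

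A pair of enhancers with few tags after 3 h under either condition fell to 0. chr9:46031248-46031679 had 16 and 15 tags at 3 h, 2 and 1 at 9 h, and none at 15 h with both stimuli, and 8 and 2, 0 and 3, and 3 and 3 with IFN-γ alone. It was at least 9.96-fold lower at 15 h than at 3 h with both stimuli (adjusted p = 3.32e-05). chr1:95243303-95243549 had 11 and 20, 2 and 1, and 0 and 0 tags with both stimuli and 6 and 3, 1 and 0, and 0 and 2 with IFN-γ alone, with the same bound (adjusted p = 9.62e-05). Both calls were kept without any 1 library (adjusted p up to 0.0242). chr3:121123880-121124248 had 12 and 14 tags at 3 h, none at 9 h, and 1 and 0 at 15 h, and was at least 8.34-fold lower at 9 h (adjusted p = 0.00286, and 0.12 at most without a replicate at 9 h, either of which ended the call). chr8:121442674-121443289 had 35 and 48 tags at 3 h, 5 and 8 at 9 h, and 24 and 30 at 15 h, and was lower by 2.27 ± 0.43 at 9 h (log2, adjusted p = 6.07e-05, or 0.0789 without replicate 1 at 9 h). Its difference between 15 h and 9 h was not called.

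Some of the enhancers that rose with both stimuli had little signal at 3 h. chr6:136666904-136667431 had 0 and 2 tags at 3 h, 8 and 12 at 9 h, and 8 and 11 at 15 h, a ratio of 9 h to 3 h of 10.4 (95% counting interval 2.52 to 91.7, adjusted p = 0.00597). Without replicate 1 at 3 h or replicate 2 at 9 h this call was lost (adjusted p up to 0.176). chr5:65057409-65057845 had no tag at 3 h, 5 and 4 at 9 h, and 7 and 16 at 15 h, and was at least 7.96-fold higher at 15 h (adjusted p = 0.000602, and up to 0.0604 without replicate 2 at 3 h or at 15 h). Among the strong enhancers, chr10:7710717-7711320 rose by 1.27 ± 0.31 at 15 h (log2, adjusted p = 0.00255), and chr9:57554000-57554392 had 8 and 25, 22 and 28, and 31 and 49 tags and rose by 1.26 ± 0.35 (adjusted p = 0.00996). The first call was lost without replicate 2 at 3 h or at 15 h (up to 0.165), and the second without replicate 1 at 3 h or replicate 2 at 15 h (up to 0.322).

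Enhancers called over time with both stimuli were then read in the IFN-γ libraries, which share no library with that comparison. The 59 that fell at 15 h with both stimuli had a median log2 difference of -0.54 at 15 h against 3 h with IFN-γ alone, against 0.12 over all 535. Of the 59, 44 were below 0 and 1 was called lower. The 25 that fell at 9 h had a median of -0.39 at 9 h against 3 h with IFN-γ alone, against 0.24 over all 535, with 20 below 0. The 10 that rose at 15 h had a median of 1.09 at 15 h with IFN-γ alone. Across the 535, the differences of 15 h from 3 h correlated between the conditions with a Pearson r of 0.331, and those of 9 h from 3 h with r = 0.343, as a description over enhancers that are not independent.

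**Figure D4:**
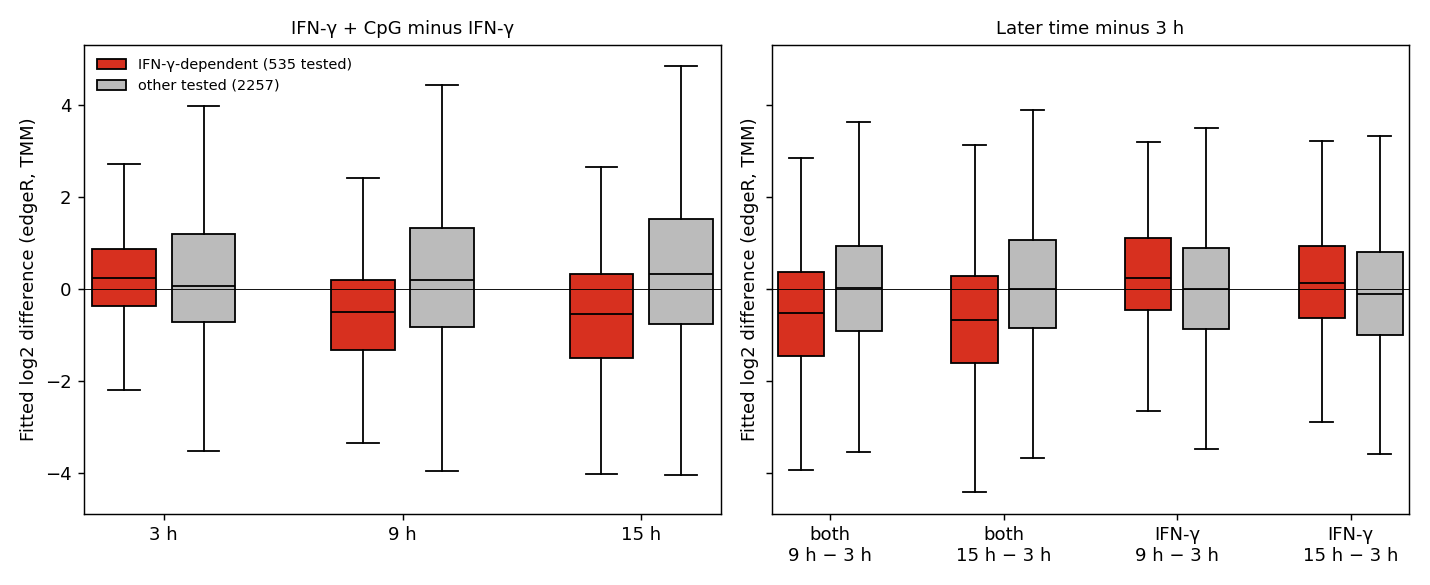
Fitted log2 differences (edgeR, TMM) of the 535 tested IFN-γ-dependent enhancers (red) and the other 2257 tested (grey). The grey set holds 416 CpG-dependent enhancers, which were chosen for being higher with CpG. Left, both stimuli minus IFN-γ at 3, 9 and 15 h; right, later times minus 3 h with both stimuli or IFN-γ alone. Boxes span the quartiles with the median, whiskers reach 1.5 interquartile ranges, and points beyond are not drawn; the red boxes shift below 0 at 9 and 15 h with both stimuli.

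At 9 and 15 h, more of these enhancers were called lower than higher when CpG was added to IFN-γ. The CpG ratio of the rule used these same libraries and held down rises. The counts and medians below are therefore a description of the chosen enhancers and no test of what CpG does. With both stimuli against IFN-γ alone, 48 of the 535 were lower and 3 higher at 15 h, with 9.17% called among all tested, 4.01% lower and 5.16% higher. At 9 h, 25 were lower and 2 higher, with 6.45% called among all tested, 2.26% lower and 4.19% higher. At 3 h, 2 were lower and 1 higher, with 1.29% called among all tested, 0.251% lower and 1.04% higher. Over the 3 times together, 76 were lower and 10 higher, with 21.4% called among all tested, 9.03% lower and 12.4% higher. The background holds the CpG-dependent enhancers, which were chosen for being higher with CpG. They gave 82 of its 117 higher calls at 9 h, 101 of 144 at 15 h and 233 of 345 over the 3 times, and no lower call. The choice of enhancers thus shaped both sides of this contrast. The median log2 difference of the 535 was 0.23 at 3 h, -0.49 at 9 h and -0.55 at 15 h. Over all tested enhancers it was 0.11, -0.00 and 0.09 at these times.

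The rule itself holds down rises in these comparisons, since it left out the 57 enhancers that were also higher with CpG. With a silent background, the rule allows the mean with both stimuli to be at most 3.75 times that with IFN-γ alone. With those 57 put back, a choice made after the data were seen, the rises were 7 at 3 h, 19 at 9 h, 20 at 15 h and 43 over the 3 times. The numbers of lower enhancers were then 2, 25, 48 and 76, the same as without them. That is no check on the lower calls, since the 57 were left out for being higher with CpG. Scaling also moved the balance. With whole-library totals, 15 of the 535 were higher and 2 lower at 3 h, and 1 higher and 22 lower at 9 h. At 15 h 7 were higher and 19 lower, and over the 3 times 20 were higher and 43 lower. Among all 2792 tested, 106 were higher and 4 lower at 3 h, and 69 higher and 59 lower at 9 h. At 15 h 235 of the 2792 were higher and 45 lower, and over the 3 times 431 were higher and 148 lower. The medians of the 535 were then 0.69, -0.65 and -0.15 at 3, 9 and 15 h, and those of all tested 0.57, -0.15 and 0.49. Over the 3 times the median of the 535 was -0.25 with TMM and -0.01 with whole-library totals. Over all tested it was 0.07 and 0.30.

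Single libraries weighed on these counts. At 15 h, 16 and 10 calls were left without replicate 1 or 2 of both stimuli, and 10 and 11 without replicate 1 or 2 of IFN-γ. At 9 h the counts were 0 and 8, and 3 and 7. At 3 h no call was left without any 1 of the 4 libraries. Over the 3 times together 48 to 66 calls were left. DESeq2 also called 25 of the 86 over the 3 times, and gave no adjusted p for 5.

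Among the enhancers with the most stable calls, chr12:69410829-69411146, with the tags given above, was lower by 2.75 ± 0.50 at 15 h (log2, adjusted p = 7.77e-06), and the call held without any 1 library (up to 0.00662). At 3 h its libraries overlapped, with 15 and 31 tags with both stimuli and 42 and 13 with IFN-γ alone. chr11:58850818-58851268 had 6 and 12 tags at 3 h, 4 and 6 at 9 h, and 3 and 5 at 15 h with both stimuli, against 10 and 3, 32 and 23, and 22 and 21 with IFN-γ alone. It was lower by 2.79 ± 0.54 at 15 h (adjusted p = 3.98e-05, up to 0.0131 without any 1 library). Its neighbour chr11:58870081-58870635 had no tag at 15 h with both stimuli and 12 and 7 with IFN-γ alone, at least 6.29-fold lower (adjusted p = 8.22e-05, up to 0.0274 without any 1 library). chr16:10270380-10270601 had 10 and 21, 1 and 2, and 1 and 3 tags with both stimuli, against 9 and 7, 15 and 20, and 11 and 12 with IFN-γ alone. At 9 h it was 11.1-fold lower (95% counting interval 3.51 to 56.6, adjusted p = 0.0015). This call was less stable and was lost without replicate 1 of both stimuli. The rule for named enhancers favoured calls without overlap of libraries, and a difference between times is tested only by the interaction. The enhancer chr11:95308167-95308420, silent without IFN-γ, had 16 tags with both stimuli and 60 with IFN-γ alone over the 3 times (adjusted p = 1.49e-05, up to 0.0023 without any 1 library).

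Other enhancers were lower with CpG over the 3 times together. chr13:37529896-37530155 had 0 and 0, 1 and 0, and 1 and 0 tags with both stimuli, against 5 and 3, 7 and 15, and 7 and 4 with IFN-γ alone. Over the 3 times it was 20.4-fold lower (95% counting interval 5.30 to 174.3, adjusted p = 4.17e-06). chr7:45708566-45708712 had 0 and 0, 4 and 1, and 2 and 2 tags against 2 and 1, 12 and 17, and 14 and 13, with an adjusted p of 0.00085 over the 3 times (0.0527 without replicate 1 of IFN-γ at 3 h). chr2:157996056-157996240 had a single tag with both stimuli and 29 with IFN-γ alone (28.9-fold lower, interval 4.79 to 1180, adjusted p = 0.000244). chr3:20081160-20081406 had no tag at 3 h with both stimuli against 7 and 8 with IFN-γ alone, at least 5.22-fold lower (adjusted p = 0.0108). chr7:144664396-144664792 had 6 and 6 tags against 22 and 17 at 3 h and was lower by 2.20 ± 0.52 (log2, adjusted p = 0.0108). Both 3 h calls were lost without any 1 of the 4 libraries (adjusted p up to 0.259), whereas over the 3 times both enhancers were lower without any 1 library (up to 0.0281), as were chr13:37529896-37530155 (0.000287) and chr2:157996056-157996240 (0.0237).

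The rises were led by the strongest enhancer. chr5:121537641-121537963 was higher with both stimuli by 1.72 ± 0.35 at 15 h (log2, adjusted p = 0.000147, up to 0.0336 without any 1 library) and by 1.35 ± 0.32 at 9 h (adjusted p = 0.00261). The 9 h call was lost without replicate 2 of IFN-γ or replicate 1 of both stimuli (up to 0.193). At 3 h chr9:96274023-96274371 had 34 and 33 tags with both stimuli and 6 and 10 with IFN-γ alone, and was higher by 1.52 ± 0.43 (adjusted p = 0.0356), a call lost without any 1 of the 4 libraries (up to 0.603). chr6:31102981-31103342 had 36 and 49 tags against 11 and 18 at 15 h, and was higher by 1.14 ± 0.36 (adjusted p = 0.029, up to 0.305 without either replicate of IFN-γ or replicate 2 of both stimuli). Over the 3 times, chr11:8524423-8524961 had 51 tags with both stimuli and 16 with IFN-γ alone and was higher by 1.39 ± 0.45 (adjusted p = 0.015). That call was lost without replicate 1 of IFN-γ at 9 h, replicate 2 of both stimuli at 9 h or replicate 1 of both at 15 h (up to 0.106).

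The calls at 9 and 15 h were compared with those at other times. Of the 25 enhancers lower at 9 h, 12 were also lower at 15 h, which is 48.0% of the 25 and 25% of the 48 lower at 15 h. The 48 had a median log2 difference of -0.12 at 3 h, with 27 below 0 and none called, and of -1.94 at 9 h, with 47 below 0. The 25 had a median of -0.33 at 3 h and of -2.34 at 15 h, with 23 below 0. The comparisons at different times share no library, but the ratios of the rule used the libraries of all 3 times. The overlap is therefore a description.

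Whether CpG changed the course over time was tested as an interaction. For 15 h against 3 h, 1 of the 535 was called, with a background of 0.107%. An unadjusted p under 0.05 was seen in 86 of the 535 and in 326 of all 2792. For 9 h against 3 h, a contrast added after the data were seen, 4 were called, all lower with CpG, with 0.322% called among all tested and 0.251% in that direction. The median interaction of the 535 was -0.81 and -0.82 on the log2 scale, and over all tested enhancers -0.03 and -0.16. With the stricter filter, which tested 152 of these enhancers, 9 were called for 15 h, 8 lower with CpG and 1 higher, and 2 for 9 h. With whole-library totals the medians for 9 h were -1.41 and -0.74. DESeq2 called none in either, and each call was lost in 4 to 8 of the 8 fits without 1 library (adjusted p up to 0.382).

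The effect of CpG without IFN-γ was bounded by the choice of enhancers. The rule required a low mean over the CpG and unstimulated libraries together and capped the CpG ratio, so the small count below is a description and shows nothing about CpG. With CpG alone over the 3 times against unstimulated cells, 9 of the 535 were lower and 1 higher, with 9.24% called among all tested, 4.91% lower and 4.33% higher. Low counts limit the comparison further, since 211 of the 535 had no tag in 1 of the groups compared. chr17:26656525-26656733 had 0 and 0, 1 and 0, and 2 and 0 tags with CpG and 2 and 8 in unstimulated cells, 9.68-fold lower (95% counting interval 2.49 to 54.7, adjusted p = 0.00841). The call was lost without unstimulated replicate 2 (adjusted p = 0.53), and without that library no call of the 10 was left. The 48 enhancers called lower at 15 h on adding CpG had a median log2 difference of -0.68 between CpG alone and unstimulated cells. Over all 535 it was 0.02, and of the 48, 30 were below 0 and 4 were called lower. These comparisons share no library, but the ratios of the rule used the libraries of both. The medians are therefore a description too, and whether CpG acts alike with and without IFN-γ was not tested.

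Of the 724, 366 (50.6%) were in 137 runs of neighbours spaced at most 50 kb apart, as were 47.4% of the CpG-dependent enhancers. Such a share depends on the size of the list, and that of all enhancers with 30 or more tags is not given here. The values therefore do not show that nearness is particular to these enhancers. Chromosome 11 held the most, 72, which is 22.1% of its enhancers with 30 or more tags. Enhancers of a run may share 1 regulated region and are not independent. The spans of the runs below also held 1 to 13 enhancers outside the 724. Of these, 0 to 6 per run had 30 or more tags, the most at chr11:82934995-83052740. The sums leave them out.

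The longest run held 10 enhancers over 132.6 kb, at chr15:74790406-74923036. It summed to 5.99 ± 0.418, 2.85 ± 0.150 and 3.77 ± 0.952 RPM at 3, 9 and 15 h with both stimuli, against 3.28 ± 0.282, 6.95 ± 0.544 and 5.34 ± 0.359 RPM with IFN-γ alone (SD, n = 2 each). The order of the conditions turned between 3 h and 9 h, with no overlap of libraries at either time. Other enhancers with 30 or more tags, CpG-dependent ones included, also summed higher at 3 h with both stimuli. They had 999.1 ± 197.8 RPM then, against 645.4 ± 154.2 RPM with IFN-γ alone. At 9 h they had 790.5 ± 36.81 against 797.0 ± 181.9 RPM, and at 15 h 1101.0 ± 185.5 against 692.8 ± 28.45 RPM. A higher sum at 3 h is therefore not by itself particular to a run. At chr11:21169924-21190141, 6 enhancers within 20.2 kb summed to 5.45 ± 1.38, 2.20 ± 0.330 and 2.09 ± 0.136 RPM with both stimuli, against 1.29 ± 0.307, 2.39 ± 0.0111 and 1.88 ± 0.227 RPM with IFN-γ alone. All 6 were highest at 3 h with both stimuli. Unstimulated cells had 0.0744 ± 0.105 RPM there.

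At chr11:82934995-83052740, 6 enhancers summed to 2.74 ± 0.0968, 1.56 ± 0.167 and 1.67 ± 0.280 RPM with both stimuli, against 1.79 ± 0.0314, 2.79 ± 1.09 and 3.05 ± 0.0302 RPM with IFN-γ alone. There too the libraries with CpG lay above the others at 3 h and below them at 9 and 15 h. In 3 further runs the 9 h libraries of the conditions overlapped. At chr8:47295710-47394979, 8 enhancers summed to 3.15 ± 1.29, 4.25 ± 0.306 and 4.78 ± 2.06 RPM with both stimuli and 2.40 ± 0.455, 5.58 ± 1.87 and 2.93 ± 0.723 RPM with IFN-γ alone, and all 8 were highest at 9 h with IFN-γ alone. At chr19:29343572-29476888, 8 enhancers summed to 5.89 ± 1.60, 3.45 ± 0.470 and 5.24 ± 0.313 RPM with both stimuli, against 2.59 ± 0.507, 3.51 ± 0.989 and 3.27 ± 0.397 RPM with IFN-γ alone. At chr4:132521270-132534471, 7 enhancers within 13.2 kb summed to 5.20 ± 1.12, 3.38 ± 0.174 and 3.59 ± 0.341 RPM, against 1.87 ± 0.246, 3.73 ± 1.30 and 3.50 ± 0.0268 RPM. In both of these runs the 3 h libraries with CpG lay above those with IFN-γ alone. Sums over runs were not tested, and their higher values at 3 h were not set against the higher sum of other enhancers at that time.

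**Figure D5:**
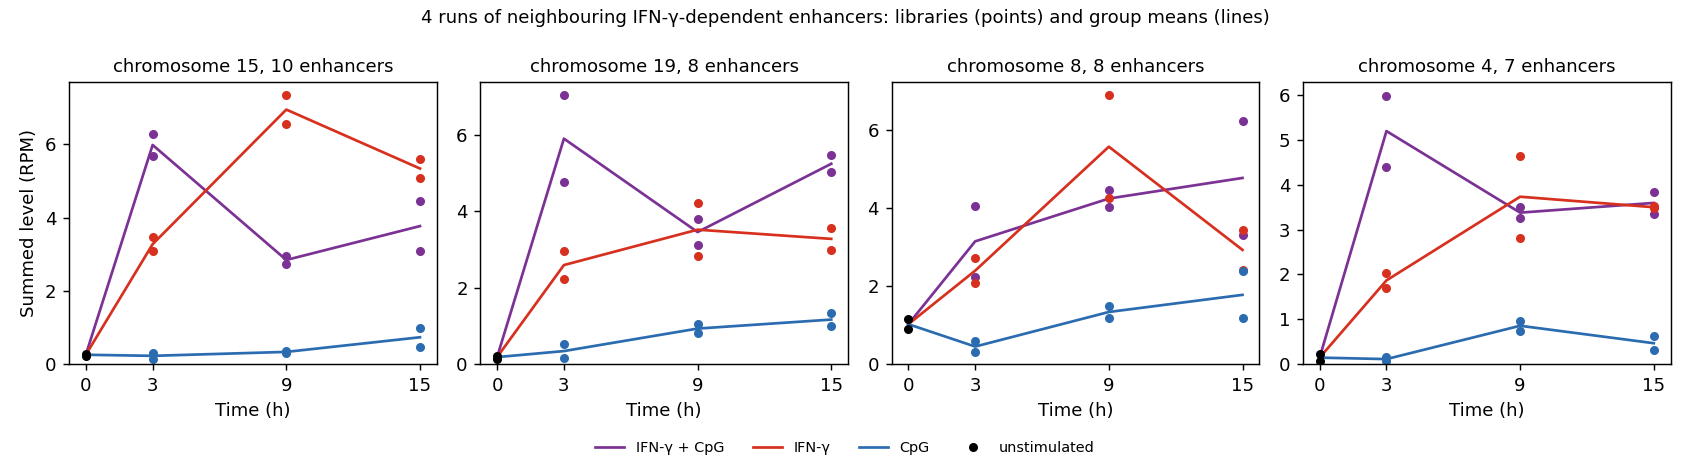
Summed level in RPM against time in hours for the 4 runs with the most IFN-γ-dependent enhancers, on chromosomes 15, 19, 8 and 4. Points are libraries and lines join means of 2. On chromosome 15 the libraries with both stimuli lie above those with IFN-γ alone at 3 h and below them at 9 h, and on chromosomes 19 and 4 they lie above them at 3 h. Enhancers outside the runs also summed higher at 3 h with both stimuli.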

How the data were processed

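Enhancer transcription was measured by nAnT-iCAGE, a CAGE protocol without amplification, in 20 libraries, grouped by their titles. The submitters' processing notes name HISAT2 2.1.0, BWA 0.7.10, Trimmomatic 0.38 and FastQC 0.11.5, and mm39 as genome build. The sources used here do not give how enhancers were called. The labels' protocols also describe a polarization step with other cytokines, which was not assigned to these libraries. The authors deposited raw tag counts per enhancer, and a table that its name calls TPM. These deposited values are RPM of the whole library, since count divided by value gives 1 total per library. Every column matched 1 sample.

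The rule was applied to both tables. Counts were tested with edgeR 4.0.16 in R 4.3.3 (robust quasi-likelihood, two-sided, TMM, 1 coefficient per group over all libraries, 10 residual degrees of freedom, common coefficient of variation 17.8%). The filter on low counts kept enhancers with about 5 tags in at least 2 libraries and 15 in all. P-values were adjusted over the 2792 tested. The method was tested on simulated data. Counting intervals are exact conditional 95% intervals for a ratio of 2 Poisson counts. Alternatives were RLE size factors as in DESeq2 1.42.0, whole-library totals, filters (none, or 10 tags and 30 in all), the replicate block, DESeq2, other thresholds of the rule and leaving out each library.

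Named enhancers are the 10 strongest with IFN-γ, the 5 with most tags among those silent without it, neighbours of the cut, the strongest by peak time, and up to 4 per direction and comparison past the threshold without overlap of libraries, of which the text gives a part. Members and lists were chosen with earlier results of these data known. Gene names, lists of genes and sequences were not used here.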

Additional observations from a re-analysis of the deposited data

Results flagged for a closer look

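Interactions between CpG and time were called in 5 results, meaning that the change over time differed between both stimuli and IFN-γ alone by edgeR's quasi-likelihood test. For 15 h against 3 h, chr11:58870081-58870635 had an interaction of -6.15 (log2, adjusted p = 0.0359), with 15 and 13 tags at 3 h and none at 15 h with both stimuli, and 12 and 12 and then 12 and 7 with IFN-γ alone. For 9 h against 3 h, chr2:48584475-48584861 had -4.99 (adjusted p = 0.0112), with 18 and 21 tags and then 1 and 0 with both stimuli, and 5 and 7 and then 10 and 10 with IFN-γ alone. chr16:10270380-10270601 had -3.64 (adjusted p = 0.0397), with 10 and 21 and then 1 and 2 with both stimuli, and 9 and 7 and then 15 and 20 with IFN-γ alone. chr3:121123880-121124248 had -8.07 (adjusted p = 0.0169), with 12 and 14 tags and then none with both stimuli, and 1 and 2 and then 4 and 8 with IFN-γ alone. chr7:75438296-75438539 had -8.39 (adjusted p = 0.0483), with 6 and 7 and then 1 and 0 with both stimuli, and none and then 5 and 5 with IFN-γ alone. Where a group is empty the fitted size depends on the small count that edgeR adds and is no bound. Leaving out 1 library ended the call in 6 of 8, 4 of 8, 7 of 8, 6 of 8 and 8 of 8 fits, in the order given.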

How the results depend on the processing

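The number of IFN-γ-dependent enhancers was 331 with a total of 50 tags as the minimum, against 724; it stayed within 1.5 times at ratios of 2 and 3 and on TMM-scaled values. In the order of 9 h and 15 h against 3 h with IFN-γ, the same with both stimuli, both stimuli against IFN-γ at 3, 9, 15 h and over the 3 times, CpG against unstimulated cells, and the interactions for 15 h and 9 h, edgeR called 5, 7, 29, 69, 3, 27, 51, 86, 10, 1 and 4. With no filter on low counts it called 1, 3, 12, 37, 1, 12, 20, 46, 3, 0 and 2, and DESeq2 called 1, 2, 4, 15, 0, 4, 11, 25, 1, 0 and 0. Leaving out 1 library gave 0 to 0, 0 to 2, 5 to 12, 14 to 29, 0 to 0, 0 to 8, 10 to 16, 48 to 66, 0 to 8, 0 to 2 and 0 to 2, with fewer libraries in each fit. The stricter filter, which tests fewer enhancers, gave 11 for 9 h against 3 h with IFN-γ, 5 for both stimuli against IFN-γ at 3 h, 44 over the 3 times, and 9 and 2 for the interactions. Whole-library totals gave 4 for 15 h against 3 h with IFN-γ, 45 for 9 h against 3 h and 1 for 15 h against 9 h with both stimuli, 17 and 26 for both stimuli against IFN-γ at 3 h and 15 h, and 0 for the 15 h interaction; with the 57 enhancers put back, 3 h and 9 h gave 9 and 44. Causes were not tested beyond these constructions. None of the 60 calls below changed sign in any setting, but the median of the 535 for 15 h against 9 h with both stimuli was -0.19 with TMM and 0.18 with whole-library totals. Among 60 calls of named enhancers in the comparisons that named them, 59 held with RLE size factors, 52 with whole-library totals, 29 with no filter, and DESeq2 called 11 of the 33 to which it gave an adjusted p; in fits without 1 library 139 of 344 held. Counts of a few tags limit all of this.

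The main fit did not pair same-numbered replicates. Deviations from the group means correlated at -0.0513 to 0.0381 over 45 pairs of groups, above 0 in 28. With so few tags per enhancer, counting error could hide a shared source, so these values do not decide whether same-numbered replicates belong together. With the replicate number as a block, counts stayed within 1.5 times and 57 of the 60 named calls held.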
